A study of Mus musculus with 4 samples.

Results

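Described here are 8 genes of mitophagy, the removal of mitochondria by autophagy, chosen by symbol in the deposited gene table: the receptor genes Fundc1, Bnip3, Bnip3l, Phb2, Bcl2l13 and Fkbp8, the Fundc1 paralogue Fundc2, and Pink1, which encodes a mitophagy kinase. Each symbol was found in a single row, so they make up 8 of 25833 rows and 8 of the 14134 rows that the authors tested.

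Mitochondria that are damaged or no longer needed are removed by mitophagy, in which an autophagosome closes around the organelle. Receptor proteins on mitochondria can recruit the autophagosome directly through proteins of the LC3 and GABARAP family, and the kinase PINK1 acts in a separate, ubiquitin-dependent route. In skeletal muscle, a tissue rich in mitochondria, both routes are known to take part in the upkeep of the mitochondrial pool.

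Gastrocnemius, the large calf muscle, was taken at 8 weeks of age from mice with a muscle-specific knockout of Fundc1 (Fundc1-mKO, called mKO here) and from wild-type mice (WT) serving as their controls, both of the C57BL/6J strain. RNA sequencing was done on 2 libraries of each genotype, labelled biological replicates. The sources used here name neither the promoter that drove the deletion nor the exon removed, and the labels state no sex. The deposited table holds 1 value per genotype, in FPKM, a fragment number corrected for transcript length and library size, with lower and upper bounds around it. The spread between animals and the depth of each library are therefore unknown here, and the bounds are those of the authors' software. A gene is said to rise or fall only where the authors' deposited table has a q below 0.05 for it. That criterion was met by 448 tested rows, or 3.17%, with 0.92% higher and 2.25% lower in mKO.

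Muscle fibre transcripts dominated both groups: the 6 tested fibre markers summed to 16135 FPKM in mKO and 15955 FPKM in WT, while a further 7, Ckm and Acta1 among them, have the status HIDATA, given by the authors to loci with too many fragments, and were not tested. Of the 6 tested fibre markers 1 fell, the type IIa myosin gene Myh2, at 384 FPKM in mKO and 487 FPKM in WT with a q of 0.00338 in the authors' deposited table. Markers of other cells were present, and some passed. No tested marker of any of these lists was at 0 in either group. Of 12 macrophage markers 9 fell and all 12 were at lower FPKM in mKO, with a sum of 249 FPKM in mKO and 318 FPKM in WT. Of 8 fibroblast markers 5 fell, with a sum of 248 FPKM in mKO and 287 FPKM in WT. Of 6 neutrophil markers 5 rose, with a sum of 272 FPKM in mKO and 197 FPKM in WT. Among the genes that passed, those of the macrophage and fibroblast lists were thus lower and those of the neutrophil list higher in mKO. When the deposited statistic was read against a normal distribution with Benjamini-Hochberg adjustment, 1 fibroblast marker and no fibre, macrophage or neutrophil marker passed. The 8 endothelial markers summed to 99.8 FPKM in mKO and 91.5 FPKM in WT and none passed, and the 7 adipocyte markers summed to 936 FPKM in mKO and 823 FPKM in WT with 1 rise. The sums of the Schwann cell markers (83.7 FPKM in mKO, 90.8 FPKM in WT), 2 tested red blood cell markers (90.7 FPKM in mKO, 78.9 FPKM in WT) and 3 tested satellite cell markers (29.6 FPKM in mKO, 30.1 FPKM in WT) came without a call. The part of these cells in the values below was not tested, and in bulk tissue fewer cells of a type and less RNA per cell cannot be told apart.

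Fundc1 fell, and was the only gene of the 8 that passed. Its encoded protein sits in the outer mitochondrial membrane and binds LC3. Fundc1 stood at 4.23 FPKM in mKO, with an interval of 3.15 to 5.31 FPKM, and at 20.1 FPKM in WT, with an interval of 16.3 to 23.8 FPKM. The intervals lay apart, as they did in 0.715% of all tested rows. Fundc1 in mKO was at 21.1% of the WT level, a log2 ratio of -2.25 with an SE of 0.23 derived from the authors' intervals and a q of 0.00338 in the authors' deposited table. That q is the smallest in the table, where 209 rows share the lowest p. By that normal reading Fundc1 also passed and none of the other 7 genes did, beside 0.198% of all tested rows. A range of 2 SE around the ratio runs from 15.4% to 28.9% of the WT level, so Fundc1 transcripts were still measured in mKO muscle. The row (XLOC_025223) covers mm10 chromosome X from 17555602 to 17572334, on the minus strand, and its FPKM is that of the whole gene, so it gives no separate value for the deleted exon.

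The other 7 genes did not pass, and their intervals in mKO and WT overlapped in every case. The 1 call among the 8 genes, beside 3.17% of all tested rows, is that of the targeted gene. Across these 7 genes the log2 ratio of mKO over WT lay between -0.08 for Phb2 and 0.19 for Pink1, with a median of 0.04, against a median of -0.02 over all tested rows. Of these 7 genes, 5 were at higher and 2 at lower FPKM in mKO, where 43.4% of all tested rows were higher. Bcl2l13 turned to a log2 ratio of 0.01 when the groups were scaled to equal medians. A range of 2 SE covered folds from 0.755 to 1.44 over the 7 genes, and the range of each gene held 1. For scale, the smallest fold that met the q criterion among tested rows with a mean of at least 1 FPKM was 1.19. That is not a limit of detection: the median fold was 1.36 over 327 of the 335 called rows at that level. A fold above 1.2 was found in 1123 such rows, so many of these were not called.

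**Figure D1:**
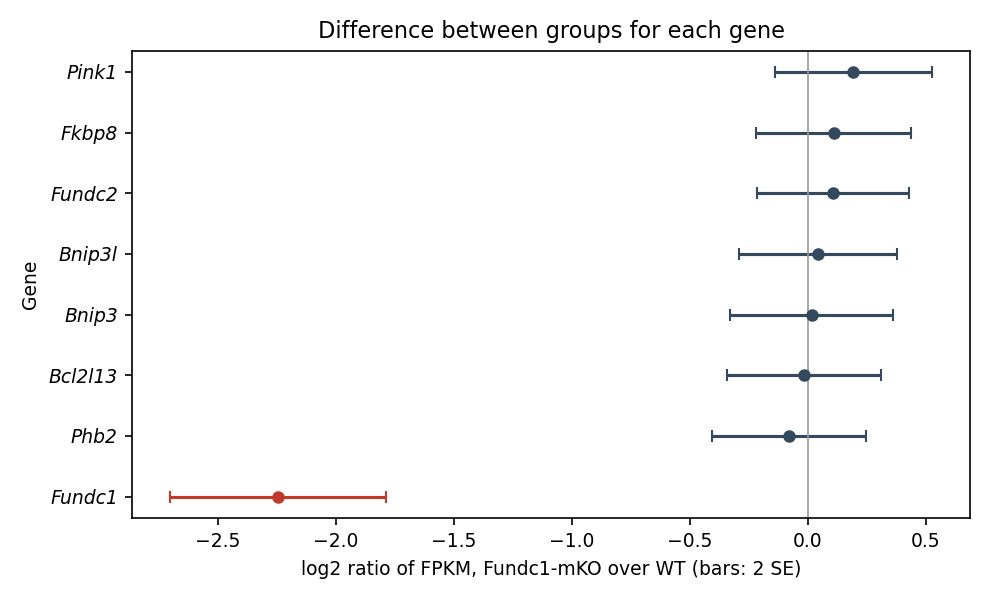
Log2 ratio of FPKM, Fundc1-mKO over WT, for each of the 8 genes, with bars of 2 SE derived from the authors' intervals; red marks a q under 0.05. Fundc1 stands alone at -2.25, and the bars of the other 7 genes cross 0.

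Levels in FPKM, which are per transcript length, spanned a wide range among the genes, and their order was the same in both genotypes. Pink1 was the highest in mKO and in WT, followed by Bnip3, Phb2, Fundc2, Fkbp8, Bnip3l, Bcl2l13 and Fundc1 in both. Intervals of neighbours in this order overlapped in both genotypes for Phb2 and Fundc2 and for Bnip3l and Bcl2l13. Overlap of intervals is not a test, and differences between genes were not tested. In WT the intervals of Bcl2l13 and Fundc1 also overlapped, with Bcl2l13 1.33 times as high. In mKO they lay apart, at a ratio of 6.23. Fundc1 was the lowest of the set in both genotypes, though in WT its interval overlapped that of Bcl2l13.

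**Figure D2:**
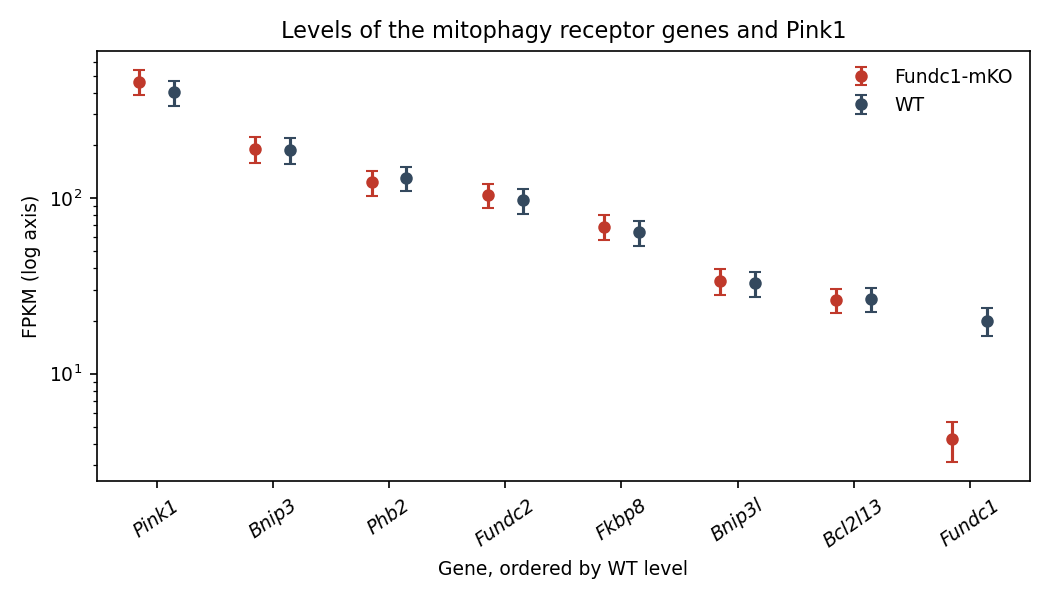
FPKM on a log axis for the 8 genes, ordered by WT level, with Fundc1-mKO (red) left of WT (dark) and the authors' intervals as bars. The pairs of points nearly coincide from Pink1, at 460.2 FPKM in mKO and 403 FPKM in WT, to Bcl2l13, at 26.4 FPKM in mKO and 26.7 FPKM in WT, but not for Fundc1, at 4.23 FPKM in mKO and 20.1 FPKM in WT.

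Fundc2 encodes a second FUN14-domain protein of mitochondria and also lies on the X chromosome, from 75382399 to 75397158 (mm10). It was at 105 FPKM in mKO, with an interval of 88.3 to 121 FPKM, and at 97.2 FPKM in WT, with an interval of 81.8 to 113 FPKM. The groups overlapped, at a fold of 1.08 and a q of 0.669 in the authors' deposited table. Fundc2 was the more abundant paralogue in both genotypes, 24.7 times as high as Fundc1 in mKO and 4.84 times in WT. No 50-base stretch of the annotated Fundc1 or Fundc2 transcripts occurs in a transcript of any other gene in GENCODE M21, the paralogue included.

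Bnip3 and Bnip3l (also called Nix) encode related outer membrane receptors whose transcription is known to respond to low oxygen. Their rows lie on the minus strand of chromosome 7 from 138888538 to 138909522 for Bnip3 and of chromosome 14 from 66985240 to 67008877 for Bnip3l (mm10). Bnip3 was at 191 FPKM in mKO, with an interval of 159 to 224 FPKM, and at 189 FPKM in WT, with an interval of 157 to 221 FPKM. The fold was 1.01, with a q of 0.990 in the authors' deposited table. Bnip3l was at 33.7 FPKM in mKO, with an interval of 28.2 to 39.3 FPKM, and at 32.7 FPKM in WT, with an interval of 27.3 to 38.1 FPKM. Its fold was 1.03, with a q of 0.940 in the authors' deposited table. Neither receptor gene stood apart between the genotypes, and Bnip3 remained 5.67 times as high as Bnip3l in mKO and 5.78 times in WT. The Bnip3 value carries an uncertainty of counting: 47.2% of the 50-base stretches of its annotated transcripts also occur in 6 other annotated genes, among them pseudogenes and the antisense gene Gm45507, whose exons cover 22.3% of the exon bases of Bnip3. The kit does not mark strand, so reads of Bnip3 and its antisense partner could not be told apart. For Bnip3l the share was 20.8%, with the pseudogene Bnip3l-ps.

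The upstream sequences of Bnip3 and Pink1 are shown because these are the 2 most abundant genes of the set and Bnip3 is a textbook target of hypoxia-inducible factors. Each line gives the 250 bases before the RefSeq start on the gene's strand (GRCm38.p6), which lie on the minus strand at chr7:138909507-138909756 for Bnip3 and at chr4:138326297-138326546 for Pink1. Capitals mark ACGTG on either strand, a form of the hypoxia response core. The other form, GCGTG, was not searched and is left in lower case.
Bnip3: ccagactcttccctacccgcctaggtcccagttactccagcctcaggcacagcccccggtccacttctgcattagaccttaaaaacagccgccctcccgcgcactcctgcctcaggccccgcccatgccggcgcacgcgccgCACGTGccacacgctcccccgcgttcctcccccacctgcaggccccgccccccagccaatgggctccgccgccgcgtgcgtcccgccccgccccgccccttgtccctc
Pink1: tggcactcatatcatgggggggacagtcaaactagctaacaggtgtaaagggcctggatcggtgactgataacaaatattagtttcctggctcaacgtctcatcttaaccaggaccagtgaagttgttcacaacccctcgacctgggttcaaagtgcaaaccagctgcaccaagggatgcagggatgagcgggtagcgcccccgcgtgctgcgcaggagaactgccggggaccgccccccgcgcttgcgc
The Bnip3 window holds the palindrome CACGTG, which reads ACGTG on both strands, and the Pink1 window holds no ACGTG. Both windows hold GCGTG, so they are not told apart by the presence of a hypoxia response core. Over windows of that length, 16.6% of 32851 hold ACGTG, as did 4 of the 7 genes matched in the promoter table (Phb2, Bnip3, Fkbp8 and Fundc2). The FoxO core GTAAACA on either strand was in none of those 7 windows and in 3.17% of all windows. The ETS core CCGGAAG on either strand was in 3 of them (Bcl2l13, Phb2 and Fundc2) and in 6.91% of all. The cAMP response element TGACGTCA and the CLEAR element core CACGTGAC were in none of those 7 windows and in 1.55% and 1.85% of all. The share of G and C ran from 57.2% (Pink1) to 72.4% (Bnip3) over the 7 windows and was not compared with that of all windows. The shares above therefore do not show an enrichment. These matches describe the letters in the windows and not binding, and Bnip3l was not matched.

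Phb2, Bcl2l13 and Fkbp8 encode receptors of different origin. On the plus strand of mm10, Phb2 lies on chromosome 6 from 124712289 to 124716945, Bcl2l13 on chromosome 6 from 120836230 to 120892842 and Fkbp8 on chromosome 8 from 70527734 to 70535329. Prohibitin 2, the product of Phb2, forms ring complexes in the inner membrane and becomes accessible to LC3 when the outer membrane breaks. Phb2 was at 123 FPKM in mKO, with an interval of 103 to 143 FPKM, and at 130.1 FPKM in WT, with an interval of 109 to 151 FPKM, with a q of 0.814 in the authors' deposited table. BCL2L13 is regarded as a mammalian counterpart of the yeast receptor Atg32. Bcl2l13 was at 26.4 FPKM in mKO, with an interval of 22.1 to 30.6 FPKM, and at 26.7 FPKM in WT, with an interval of 22.4 to 30.9 FPKM, with a q of 0.986 in the authors' deposited table. FKBP8 is an immunophilin of the outer membrane that binds LC3A. Fkbp8 was at 69.0 FPKM in mKO, with an interval of 57.9 to 80.0 FPKM, and at 63.9 FPKM in WT, with an interval of 53.6 to 74.2 FPKM, with a q of 0.649 in the authors' deposited table. The fold of mKO over WT was 0.947 for Phb2, 0.988 for Bcl2l13 and 1.08 for Fkbp8, and the intervals overlapped for all 3 genes. Bcl2l13 shares 6.91% of its annotated exon bases with Bid on the opposite strand, and Bid itself was at 0.518 FPKM in mKO and 0.765 FPKM in WT. Fkbp8 shares 4.95% with Kxd1, which was at 44.6 FPKM in mKO and 45.3 FPKM in WT. These shares are those of the GENCODE M21 annotation. The authors' rows do not overlap: that of Bid lies 276 bases from Bcl2l13 and that of Kxd1 4553 bases from Fkbp8.

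Fundc1 made up little of the receptor transcripts. The 6 receptor genes and Fundc2 summed to 552 FPKM in mKO and 559.9 FPKM in WT, and Fundc1 was 0.766% of that sum in mKO and 3.58% in WT. Without Fundc1 the sum was 548 FPKM in mKO and 539.8 FPKM in WT. Bnip3 was the largest contributor with 34.6% in mKO and 33.8% in WT, and Phb2 came next with 22.3% in mKO and 23.2% in WT. Fundc1 itself fell by 15.8 FPKM, while the other 6 genes summed to 8.47 FPKM more in mKO, and none of them passed. These sums carry no error and no test.

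Pink1 was at higher FPKM in mKO and did not pass. PINK1 builds up on mitochondria that have lost their membrane potential, where it phosphorylates ubiquitin. Its gene lies on the minus strand of chromosome 4 from 138313410 to 138326296 (mm10). Pink1 was at 460.2 FPKM in mKO, with an interval of 385 to 535 FPKM, and at 403 FPKM in WT, with an interval of 337 to 468 FPKM. The intervals overlapped, at a fold of 1.14 and a log2 ratio of 0.19 with an SE of 0.17. The unadjusted p was 0.0201 and the q 0.226 in the authors' deposited table, and an unadjusted p under 0.05 was met by 13.7% of all tested rows. That p is smaller than the difference over its SE would give: the test statistic was 1.16, where a normal distribution puts 1.96 at a two-sided 0.05. Pink1 was higher than 98.3% of all tested rows by mean FPKM. It made up 45.4% of the summed FPKM of the 8 genes in mKO and 41.8% in WT, and it was 2.40 times as high as Bnip3 in mKO and 2.13 times in WT. The log2 change of that last ratio was 0.18 with an SE of 0.24, so its range of 2 SE held 0.

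Among the nearest tested genes on either side of each of the 8 genes, 1 of 16 passed, or 6.25% beside 3.17% of all tested rows. This was Ptpn6, next to Phb2, which encodes a tyrosine phosphatase of blood cells. Ptpn6 fell to 1.39 FPKM in mKO, against 2.0 FPKM in WT, with a q of 0.0249 in the authors' deposited table. The nearest tested genes to Fundc1, Maob and Kdm6a, lie 738235 and 590332 bases from it. Maob and Kdm6a were at 12.0 and 5.08 FPKM in mKO and at 10.1 and 5.78 FPKM in WT, without passing. Ptpn6 did not pass the normal reading of the statistic. These neighbours were examined after other values of the table had been seen.

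**Figure D3:**
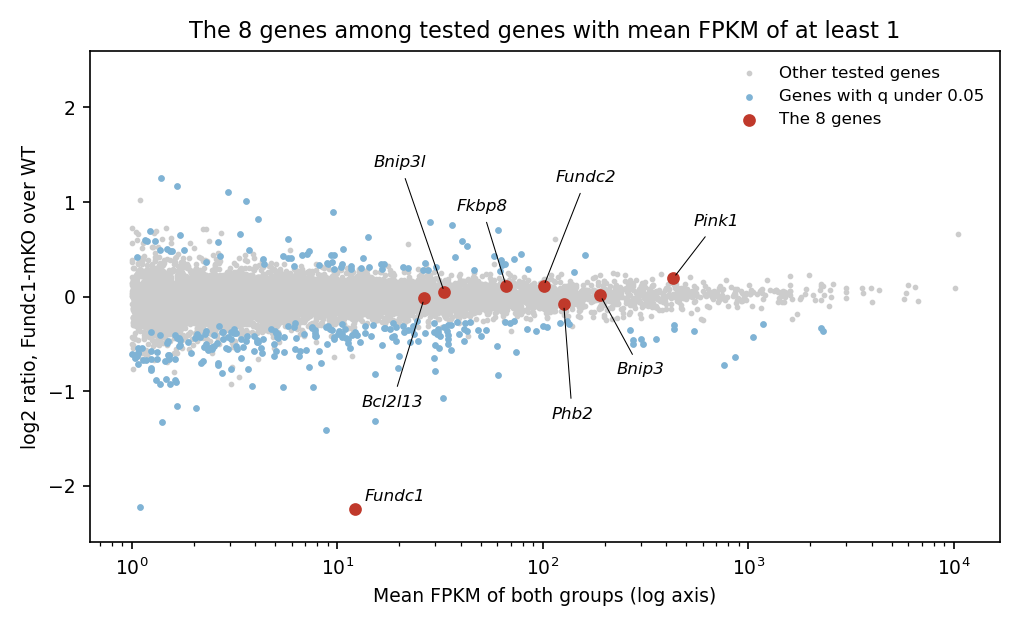
Log2 ratio of FPKM, Fundc1-mKO over WT, against the mean FPKM of both groups on a log axis, for 10496 single genes tested with a mean of at least 1 FPKM and a finite ratio; red points are the 8 genes and blue points other genes with a q under 0.05. Fundc1 at -2.25 lies well below the band of other genes, near Dmkn at -2.22, while the other 7 lie within that band; BC100530, Krtdap and Lgals7 fall beyond the axis.

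Likeness to Fundc1 was measured as the absolute difference in log2 ratio over the 2 group values. It was taken among the 10496 single genes tested with a mean of at least 1 FPKM and a finite ratio. The nearest by this measure were Dmkn, Saa3 and Saa1. Dmkn, an epidermal gene, was at 0.387 FPKM in mKO and 1.81 FPKM in WT, a log2 ratio of -2.22. Saa3, which encodes an acute phase protein, was at 4.84 FPKM in mKO and 12.9 FPKM in WT, a log2 ratio of -1.41. Saa1, of the same family, was at 0.796 FPKM in mKO and 2.0 FPKM in WT, a log2 ratio of -1.33. Among these genes the next log2 ratio after Dmkn, that of Saa3, differed by 0.84 from that of Fundc1. Of the 10496 genes, 3 had a lower log2 ratio than Fundc1. A further 8 tested single genes of that level were at 0 in mKO and so had no finite ratio. Over all tested rows, whatever their level, 79 had a larger absolute log2 ratio than Fundc1. Dmkn, Saa3 and Saa1 all passed, but Saa3 alone of them passed the normal reading, and the mKO interval of Dmkn reaches down to 0.

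Few genes passed in 9 lists drawn up around the receptors and PINK1, which include transcription factors and hypoxia-inducible genes. Over these lists 81 genes were tested singly, of which 3 rose and 1 fell, or 4.94% beside 3.17% of all tested rows. Of the 81 genes, 41 had the higher and 40 the lower FPKM in mKO. Their median log2 ratio was 0.00, against -0.02 over all tested rows. An unadjusted p under 0.05 was met by 9 of them, or 11.1%, beside 13.7% of all tested rows. The 4 genes stood in the lists of transcription factors and hypoxia-inducible genes, and the other 7 lists had no call.

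The LC3 and GABARAP family, which the receptors bind, gave no call among 4 tested genes (median log2 ratio 0.05). Gabarapl1 was at 52.4 FPKM in mKO and 61.9 FPKM in WT with a q of 0.0985 in the authors' deposited table, and Map1lc3a was at 309 FPKM in mKO and 297 FPKM in WT. Of 7 genes for ubiquitin-binding cargo receptors and the kinase TBK1, the kinase included, none passed. All 7 were at lower FPKM in mKO, or 6 with the groups scaled to equal medians. Their median log2 ratio without scaling was -0.10. By the same values 43.4% of all tested rows were higher in mKO. Sqstm1 (p62), which links ubiquitin to LC3, had 278 FPKM in mKO and 325 FPKM in WT with a q of 0.130 in the authors' deposited table. Nbr1, a related cargo receptor, was at 28.7 FPKM in mKO and 31.2 FPKM in WT.

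Genes around PINK1 gave no call. None of 13 genes for PINK1 import, processing and stabilisation passed (median log2 ratio -0.05), with the import subunit gene Timm50 at 35.6 FPKM in mKO and 38.1 FPKM in WT and Tomm20 at 28.1 FPKM in mKO and 29.7 FPKM in WT. None of 8 tested mitochondrial ubiquitin ligase and deubiquitinase genes passed (median -0.04), and March5, of the same list, had no row under its symbol. Fbxo7, a ubiquitin ligase subunit, was at 5.13 FPKM in mKO and 5.75 FPKM in WT, and Mul1, a ligase of the outer membrane, was at 13.7 FPKM in mKO and 12.7 FPKM in WT. All 8 genes for outer membrane proteins ubiquitinated in mitophagy were at higher FPKM in mKO, under each scaling tried. Their log2 ratios ran from 0.00 to 0.10, and none passed. Without scaling, 43.4% of all tested rows were higher in mKO. The channel genes Vdac1 and Vdac3 were at 857 and 302 FPKM in mKO and at 801 and 286 FPKM in WT.

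Binding partners and kinases of the receptors gave no call either. Of 11 tested binding partners the median log2 ratio was -0.01, or 0.02 with the groups scaled to equal medians. Bcl2l1, which encodes BCL-XL, was at 9.42 FPKM in mKO and 10.2 FPKM in WT, and Nipsnap1 at 0.379 FPKM in mKO and 0.480 FPKM in WT. Of 5 kinase and regulator genes of FUNDC1 the median was 0.00, with Csnk2b, a casein kinase 2 subunit, at 136 FPKM in mKO and 129.6 FPKM in WT and Src at 0.889 FPKM in mKO and 0.958 FPKM in WT.

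Of 10 genes for transcription factors and coactivators linked to receptor genes 2 rose, with a list median of 0.00. Ppargc1a, which encodes the coactivator PGC-1alpha of mitochondrial biogenesis, rose 1.35-fold to 11.0 FPKM in mKO, against 8.16 FPKM in WT, with a q of 0.00338 in the authors' deposited table. Foxo1, a forkhead factor of the fasting response, rose 1.23-fold to 14.4 FPKM in mKO, against 11.7 FPKM in WT, with a q of 0.0345 in the authors' deposited table. Hif1a encodes an oxygen-regulated factor behind Bnip3 induction. Its transcript was at 7.20 FPKM in mKO and 7.26 FPKM in WT, and Hif1a is named here after its values were seen. The level of its protein was not measured here. Of 15 hypoxia-inducible genes Vegfa rose and Pfkfb3 fell, with a median log2 ratio of 0.06. Vegfa, the angiogenic growth factor gene, was at 50.4 FPKM in mKO and 41.7 FPKM in WT with a q of 0.0371 in the authors' deposited table. Pfkfb3, a regulator of glycolysis, fell to 28.7 FPKM in mKO, against 40.6 FPKM in WT, with a q of 0.00338 in the authors' deposited table. None of Ppargc1a, Foxo1, Vegfa and Pfkfb3 passed the normal reading of the statistic. Beside these, the fold of Bnip3 was 1.01 and that of Bnip3l 1.03. Ankrd37, named after its values were seen, was at 6.93 FPKM in mKO and 4.92 FPKM in WT with a q of 0.352 in the authors' deposited table.

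**Figure D4:**
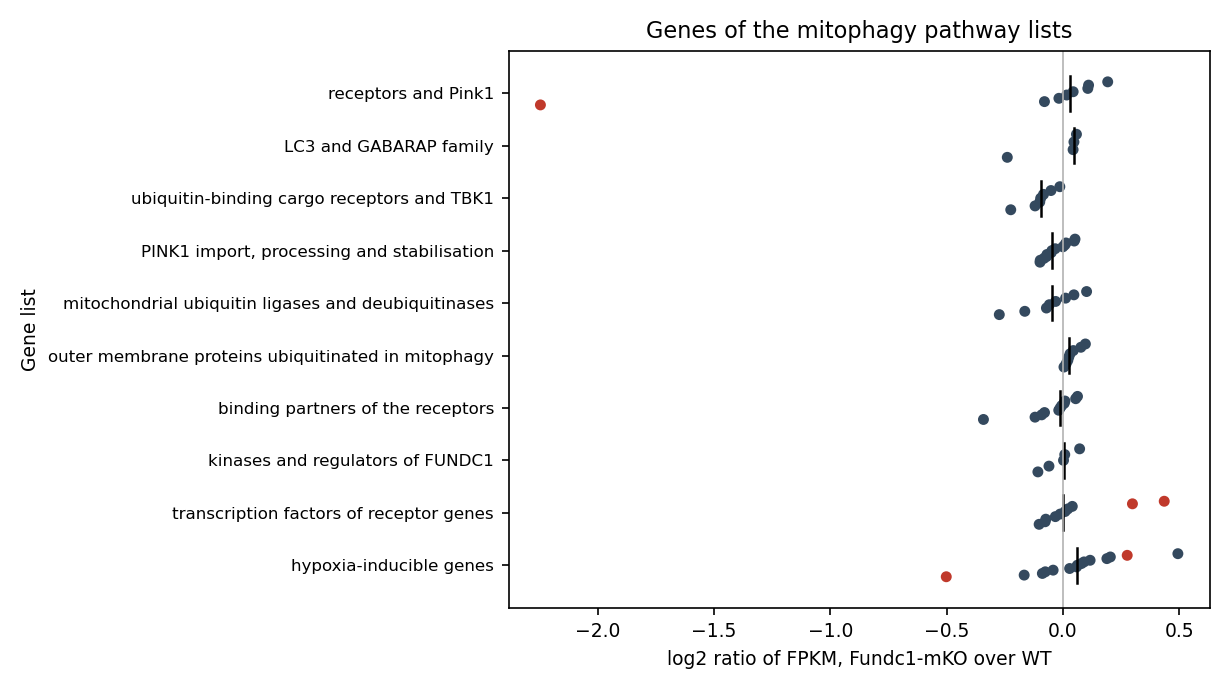
Log2 ratio of FPKM, Fundc1-mKO over WT, of each tested gene in the lists (points) with the list median (vertical bar); red marks a q below 0.05. Apart from Fundc1, the red points are Ppargc1a and Foxo1 among transcription factors and Vegfa and Pfkfb3 among hypoxia-inducible genes, and the dark point farthest to the right is Ankrd37.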

How the data were processed

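Per the labels' protocols, RNA of frozen gastrocnemius was made into libraries with a NEBNext Ultra kit. Tools listed in the submitters' processing notes are Cufflinks 2.2.1, TopHat2 2.0.14, FastQC 0.11.3 and bcl2fastq, with the build mm10. Their roles, the annotation and the settings were not found in the labels or headers. Per the file headers, the authors gave 1 FPKM per gene and genotype with bounds, a test statistic (a score), a p-value and a q-value. No value per library is held, so limma could not be fitted, and the authors' q under 0.05 over all 14134 tested rows was used. Depth is unknown. Replicates are labelled biological, and whether the p-values reflect animals cannot be checked here.

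Log2 ratios and their SE were computed from the FPKM, taking the distance to a bound as 2 SD; ratio over SE came within 1% of the deposited statistic in 99.9% of 14100 rows. Row starts were counted from 1. Reading of the statistic against a normal distribution with Benjamini-Hochberg adjustment was run on simulated statistics. Those were normal by construction, so the run checks the computation only. It cannot show whether the deposited statistic follows a normal distribution. Shared 50-base stretches and exon overlaps used GENCODE M21, and promoters came from RefSeq, GRCm38.p6. Genes named are the 8 members described and, per list, those with a q under 0.05 or else those with the smallest p, up to 2. The members and lists were chosen with earlier results of these data known, and 1 further member is not reported here. Of 87 listed pathway symbols 5 were not found in a row of their own and 1 was untested. Gabarap, Tomm40 and Rhot2 share a row with other genes, and Nipsnap2 is a newer name of Gbas, which is also listed and was tested. March5 had no row under its symbol and was not read. Python 3.11.15, numpy 2.4.6, pandas 2.3.3, scipy 1.17.1 and matplotlib 3.10.9 were used.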

Additional observations from a re-analysis of the deposited data

How the results depend on the processing

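Fundc1 kept its direction under the pseudocounts and scalings tried and its call under the q thresholds of 0.1 and 0.01, the normal reading and the criterion of separate intervals. None of the other 7 genes passed a q under 0.1, a normal reading of the statistic or separate intervals; 2 of the 8 genes met an unadjusted p under 0.05. The log2 ratio of Fundc1 was -2.01 with a pseudocount of 1 FPKM, a setting that by construction shrinks ratios of low values. Over all tested rows the count of 448 became 695 at a q under 0.1, 249 at a q under 0.01, 101 by separate intervals and 28 by the normal reading with Benjamini-Hochberg adjustment. By that last reading 0 of the 81 pathway genes passed, against 4 by q and 9 by unadjusted p in the authors' deposited table. The rises of Ppargc1a, Foxo1 and Vegfa and the falls of Pfkfb3 and Ptpn6 thus did not hold under it; the cause was not tested. Scaling to equal medians shifted every log2 ratio by 0.03. No paired analysis was possible because the table holds 1 value per genotype; for the same reason no replicate could be left out, and the spread between animals cannot be given.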
